A study of Mus musculus with 11 samples.

Results

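The genes of ER-associated degradation followed in mouse pancreatic islets were Sel1l, Syvn1, Edem1, Edem2, Derl1, Derl2, Derl3, Herpud1, Os9 and Selenos, which are 10 of the 32285 genes in the count table. They were taken by gene name as the ubiquitin ligase complex, the derlins and the lectins of this pathway, a rule that uses no measured value. The list itself was chosen with earlier results of these data known. RNA was sequenced in 11 libraries of islets from mice aged 16 weeks that had eaten a high-fat diet for 4 weeks. Islets were kept in 10 µM azoramide or in its solvent DMSO for 24 h, and came from mice labelled βZKO_Mip, a knockout of Zzef1 in beta cells, or from their littermate controls. There were 3 labelled knockout libraries with azoramide, 3 control libraries with azoramide, 2 labelled knockout libraries with DMSO and 3 control libraries with DMSO. Each library pooled islets of at least 3 mice of 1 genotype, so a value is that of a pool, and the spread between libraries is that between pools. By the design the deletion touches beta cells, and the other islet cells keep the gene.

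ER-associated degradation removes proteins that fail to fold in the endoplasmic reticulum (ER). Lectins and mannosidase-like proteins pick out the misfolded glycoproteins, a membrane ubiquitin ligase complex built on Syvn1 (also called HRD1) and its partner Sel1l passes them to the cytosol and tags them, and the proteasome breaks them down. In beta cells, which fold very large amounts of proinsulin, the Sel1l and Syvn1 complex is known to be needed for normal function, and several of its genes are targets of the unfolded protein response. Azoramide is a small molecule described as acting on ER protein folding.

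The promoters of 4 members are shown first, because the unfolded protein response reaches its targets through short promoter motifs. Syvn1, Herpud1 and Derl3 are the members whose windows held a motif searched, and Sel1l is shown as a member without one. Sel1l and Syvn1 fell in both genotypes, Herpud1 and Derl3 did not pass the test, and Derl3 had the lowest level. The sequences are RefSeq windows of build GRCm38.p6, from 250 bases before to 50 bases after the annotated start, 5′ to 3′ on the gene's strand. Capitals mark an ER stress response element. The Syvn1 window, chr19:6046326-6046625 on the plus strand, holds CCAAT and CCACG separated by 9 bases, from 44 to 26 bases upstream of the start.
Syvn1: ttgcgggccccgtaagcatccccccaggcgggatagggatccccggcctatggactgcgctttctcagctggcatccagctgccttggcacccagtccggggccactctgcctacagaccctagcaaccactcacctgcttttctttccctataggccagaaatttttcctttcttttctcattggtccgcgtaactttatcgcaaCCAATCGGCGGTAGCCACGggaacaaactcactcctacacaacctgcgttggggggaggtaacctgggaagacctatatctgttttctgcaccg
The Herpud1 window, chr8:94386179-94386478 on the plus strand, holds the second form of the element, ATTGG and CCACG separated by 1 base, from 52 to 42 bases upstream.
Herpud1: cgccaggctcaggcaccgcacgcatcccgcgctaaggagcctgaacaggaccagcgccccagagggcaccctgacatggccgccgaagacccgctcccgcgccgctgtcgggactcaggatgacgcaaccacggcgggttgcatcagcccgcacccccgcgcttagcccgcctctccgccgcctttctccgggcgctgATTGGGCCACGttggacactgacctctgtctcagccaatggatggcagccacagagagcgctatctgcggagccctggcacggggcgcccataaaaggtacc
The Derl3 window, chr10:75893148-75893447 on the plus strand, holds the first form on the opposite strand, from 156 to 138 bases upstream, so the capitals read as its reverse complement.
Derl3: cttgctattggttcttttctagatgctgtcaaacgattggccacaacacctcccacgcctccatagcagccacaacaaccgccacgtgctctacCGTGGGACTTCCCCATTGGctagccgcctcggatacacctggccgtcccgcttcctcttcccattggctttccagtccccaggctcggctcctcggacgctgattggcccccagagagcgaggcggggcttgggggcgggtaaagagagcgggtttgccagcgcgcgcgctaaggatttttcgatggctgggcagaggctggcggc
The Sel1l window, chr12:91849108-91849407 on the minus strand, holds none of the 4 motifs searched, and nothing is in capitals.
Sel1l: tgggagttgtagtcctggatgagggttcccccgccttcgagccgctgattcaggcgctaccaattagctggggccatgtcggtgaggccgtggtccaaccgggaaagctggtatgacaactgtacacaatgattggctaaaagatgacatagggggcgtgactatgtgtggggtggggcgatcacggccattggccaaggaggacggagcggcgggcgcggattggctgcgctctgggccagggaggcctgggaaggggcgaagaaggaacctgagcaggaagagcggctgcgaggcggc

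Windows were matched for 9 of the 10 members, and Derl1 was not matched. Both strands were searched for exact letters. The first form of the element was in 39 of 32851 windows of the same length in the table, or 0.119%, among them those of Syvn1 and Derl3. The second form was in 12 windows, or 0.037%, among them that of Herpud1. The motif TGACGTGG, bound by XBP1 and ATF6, was in 222 windows, or 0.676%, and the motif TGATGCAAT, bound by C/EBP and ATF proteins, was in 63 windows, or 0.192%, and neither was in a window of a member. No 2 matches overlapped. A match describes letters and is not evidence of binding.

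All 10 members passed the filter on low counts. Library totals ran from 16832800 to 19501813 counts, and 9 members had from 970 to 6369 reads in each library, against 35 to 116 reads for Derl3, whose values are the least precise. Levels are CPM, counts relative to library size, after TMM scaling, and tests are edgeR's quasi-likelihood test on all 15093 genes that passed the filter, with Benjamini-Hochberg adjusted p-values and a threshold of 0.05. Fold changes are on the log2 scale with their standard error (SE). Zzef1, the targeted gene, averaged 72.8 ± 4.53 CPM in labelled knockout libraries with azoramide and 66.6 ± 2.02 CPM in controls with azoramide (SD, n = 3 each), and 81.5 ± 2.93 CPM (SD, n = 2) in labelled knockout libraries with DMSO against 97.2 ± 12.2 CPM (SD, n = 3) in controls with DMSO. With DMSO it was lower in labelled knockout libraries (79.4 and 83.5 CPM, against 85.4, 109.7 and 96.5 CPM in controls), a log2 difference of -0.26 (unadjusted p = 0.00927, adjusted p = 0.9992). With azoramide it was 68.7 to 77.7 CPM in labelled knockout libraries, against 64.3 to 68.1 CPM in controls, a difference of 0.13 in the other direction (unadjusted p = 0.117, adjusted p = 0.968). For azoramide against DMSO, Zzef1 was -0.16 (adjusted p = 0.153) in labelled knockout libraries and -0.55 (adjusted p = 3.46e-05) in control islets, the second -0.20 (adjusted p = 0.097) when corrected for length and GC content. Since the direction between the labels was not the same in both treatments, the wording "labelled knockout" is kept throughout. The labels used here do not state which exons are deleted.

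The defining hormone genes of islets were the most abundant markers, and their summed level was 164000 to 219200 CPM in the 6 azoramide libraries, against 144700 to 157800 CPM in the 5 DMSO libraries. The sum of the macrophage markers also moved with the treatment, at 52.0 to 91.1 CPM with azoramide and 38.6 to 48.4 CPM with DMSO. All 5 were detected in all libraries, and Cd68 had the widest range, 11.1 to 42.4 CPM. The treatments were not compared for each macrophage marker. Acinar markers, all 11 detected in all libraries, summed to 1150 to 6488 CPM with azoramide and 649.5 to 5629 CPM with DMSO, and varied by library within every group. Ductal markers summed to 1157 to 1548 CPM with azoramide against 942 to 1203 CPM with DMSO, endothelial markers to 282.5 to 345 against 318 to 364 CPM, stellate markers to 37.1 to 44.8 against 40 to 45.9 CPM and plasma cell markers to 5.35 to 11.2 against 5.71 to 9.81 CPM, where Jchain, Mzb1 and Igkc were at or near 0. The ductal sum was carried by Krt7 (477 to 629 CPM) and Spp1 (390 to 982 CPM). Krt19, Sox9 and Cftr were low, at no more than 14.0, 1.54 and 0.587 CPM in any library. In bulk islets fewer cells of a type and less RNA per cell cannot be told apart, and the part of these cell types in the members' differences was not tested beyond the acinar markers. With those as a covariate, Derl1 in labelled knockout libraries was 0.20 (edgeR adjusted p = 0.0589), no longer a call, and Edem1 there was -0.19 (edgeR adjusted p = 0.0222), a call it did not have otherwise. The values for Derl3 are given below, and no other call of a member changed.

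Per kilobase of exonic length, Herpud1 had the highest level of the members in all 11 libraries, at 107 to 131 CPM per kb. Herpud1 carries a ubiquitin-like domain and joins the ligase complex to the proteasome pathway. Os9, at 83.7 to 102 CPM per kb, and Selenos, at 63.4 to 104 CPM per kb, held the next places, and their ranges overlapped. Derl1 had rank 4 in every library, at 49.9 to 65.5 CPM per kb. Edem2 (26.5 to 32.4 CPM per kb) and Sel1l (20.8 to 33.7 CPM per kb) exchanged places between libraries, and Edem1 had rank 7 in each, at 17.0 to 20.2 CPM per kb. Syvn1 (11.7 to 17.8 CPM per kb) and Derl2 (11.2 to 14.9 CPM per kb) overlapped below it. Derl3 was lowest throughout, at 0.978 to 2.88 CPM per kb. The order rests on the length used: with the longest coding transcript in place of all exons, Derl2 moved up to rank 6 or 7 and Selenos took ranks 1 to 3.

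**Figure D1:**
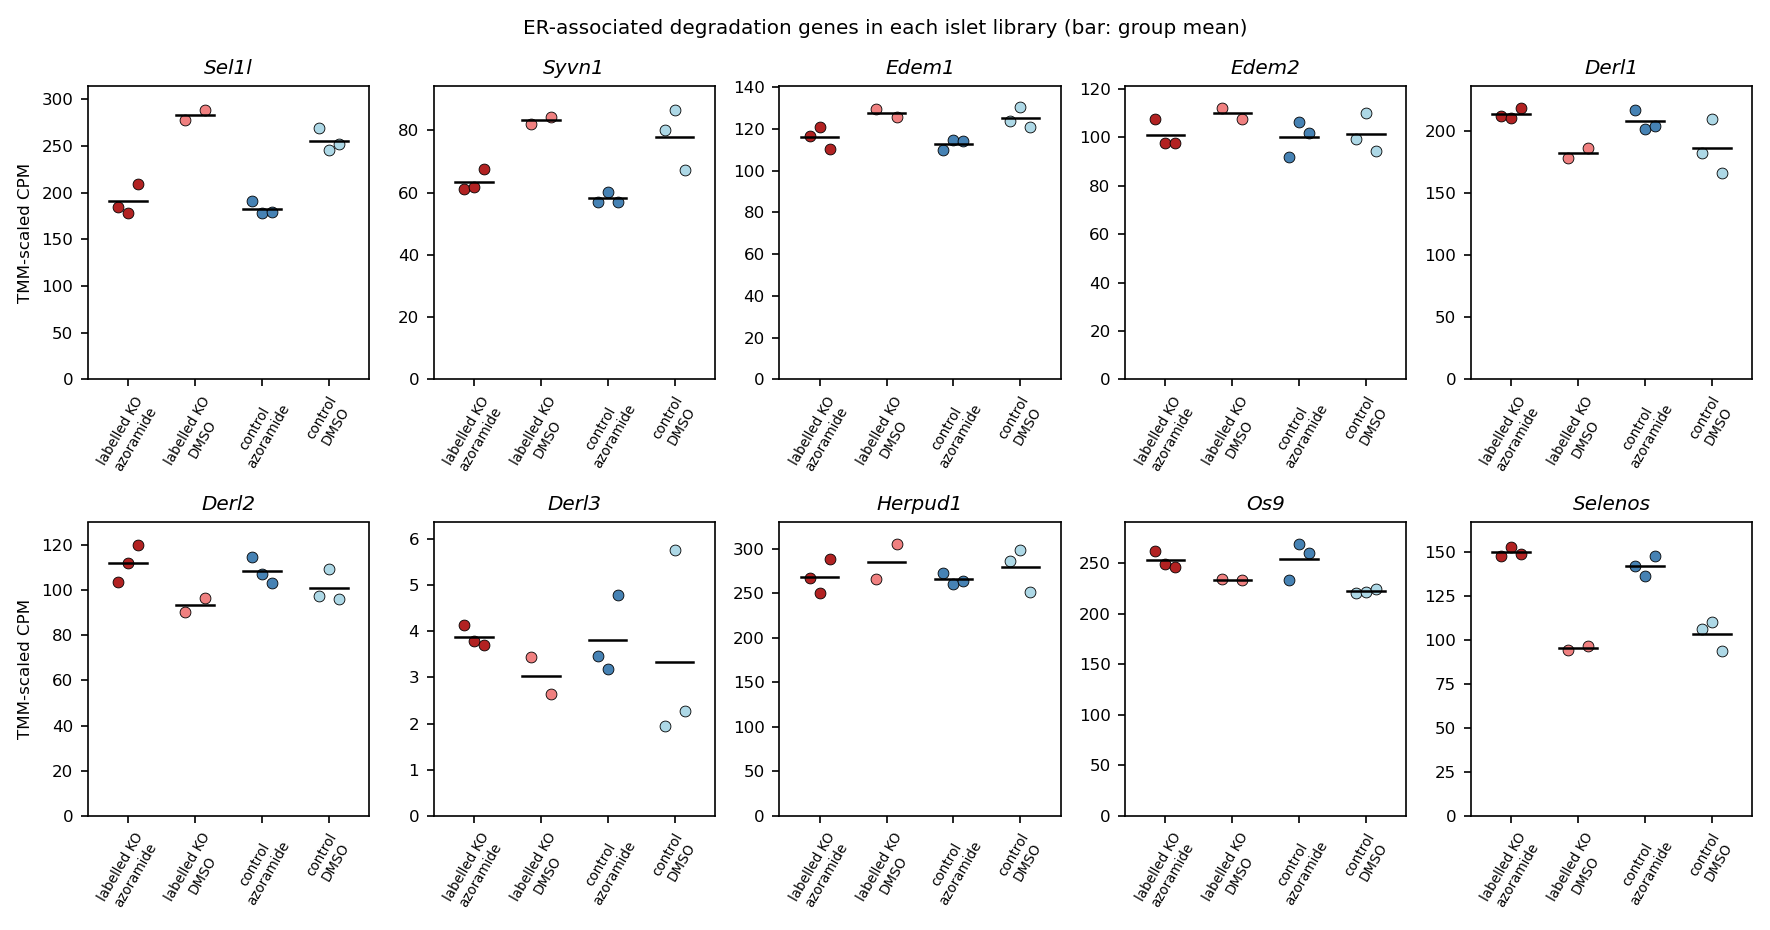
TMM-scaled CPM of each member (y axis, from 0, a scale of its own in each panel) in each of the 11 libraries, by group, with a bar at the group mean. Within each genotype the azoramide libraries sit below the DMSO libraries for Sel1l and Syvn1 and above them for Selenos, while the Herpud1 groups overlap.

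With azoramide against DMSO, 5 of 10 members passed the test in labelled knockout libraries and 5 of 10 in control islets. In labelled knockout libraries Derl1, Derl2 and Selenos rose and Sel1l and Syvn1 fell. In control islets Os9 and Selenos rose and Sel1l, Syvn1 and Edem1 fell. These counts stand against a wide response: 39.8% of all genes tested passed in labelled knockout libraries (20.0% higher, 19.8% lower) and 39.0% in control islets (19.3% higher, 19.8% lower), so the members' counts are near the background. By plain library totals, 1 member was called higher and 5 lower in labelled knockout libraries, where Derl1 was 0.07 (adjusted p = 0.478), Derl2 0.10 (adjusted p = 0.2905), Edem1 -0.29 (adjusted p = 0.00197) and Edem2 -0.28 (adjusted p = 0.0114), and 1 was called higher and 4 lower in control islets. With those totals 29.1% of the calls over all genes were higher in labelled knockout libraries and 24.8% in control islets, and with a correction for length and GC content, described below, 56.7% and 60.05%. The median log2 fold change of the members was 0.01 in labelled knockout libraries and 0.04 in control islets, against -0.003 and -0.02 over all genes tested. DESeq2 called 5 members in labelled knockout libraries and 4 in control islets.

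The 2 core members of the ligase complex were lower with azoramide. Sel1l, the adaptor that holds and stabilises the ligase, had 184.5, 178.7 and 209 CPM in the labelled knockout libraries with azoramide, against 278 and 288 CPM in those with DMSO. Control islets had 191, 178 and 179.5 CPM with azoramide, against 269, 245 and 253 CPM with DMSO. All 6 azoramide libraries lay below all 5 DMSO libraries. Its log2 fold change was -0.57 (SE 0.07, adjusted p = 1.13e-05) in labelled knockout libraries and -0.48 (SE 0.07, adjusted p = 2.07e-05) in control islets. Sel1l spans chr12:91806043-91849157 (GRCm38, minus strand), with 8.555 kb of exons.

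Syvn1, the ubiquitin ligase itself, had 61.2, 61.7 and 67.5 CPM in labelled knockout libraries with azoramide, against 82.0 and 84.3 CPM with DMSO. In control islets the values were 57.0, 60.3 and 57.0 CPM with azoramide, against 80.1, 86.5 and 67.2 CPM with DMSO. The groups did not overlap within either genotype, and the lowest control DMSO library was below the highest labelled knockout azoramide library. Its log2 fold change was -0.39 (SE 0.09, adjusted p = 0.00163) in labelled knockout libraries and -0.42 (SE 0.08, adjusted p = 3.79e-04) in control islets. The correction for length and GC content ended both calls. Syvn1 lies at chr19:6046576-6053712 (plus strand), and 91 bases of its exons overlap Mrpl49 on the opposite strand. Whether reads were counted by strand is not given in the sources used here, and reads of that stretch cannot be assigned with certainty.

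Within a library, the count of Sel1l divided by that of Syvn1 does not depend on scaling to library size. It was 3.01, 2.90 and 3.10 in labelled knockout libraries with azoramide and 3.40 and 3.42 in those with DMSO. Control islets had 3.35, 2.96 and 3.15 with azoramide and 3.36, 2.84 and 3.76 with DMSO. The control groups overlapped and the labelled knockout groups did not, and no test was made of the ratio.

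Herpud1, also a part of the complex and a member with an ER stress response element in its promoter window, did not pass the test. It had 267, 250.4 and 289 CPM in labelled knockout libraries with azoramide, against 266 and 305 CPM with DMSO. Control islets had 273, 261 and 264 CPM with azoramide, against 287, 298.5 and 252 CPM with DMSO. The groups overlapped in both genotypes. Herpud1 had a log2 fold change of -0.09 (95% interval -0.26 to 0.08, adjusted p = 0.421) in labelled knockout libraries and -0.07 (95% interval -0.22 to 0.09, adjusted p = 0.492) in control islets. Scaled by plain library totals it was -0.24 in labelled knockout libraries (adjusted p = 0.0149), where the median of all genes was -0.16, and -0.24 in control islets (adjusted p = 0.00943), where that median was -0.19.

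Selenos, a selenoprotein of the ER membrane that binds the derlins and brings the ATPase VCP to the exit site, rose the most of the members that passed. Labelled knockout libraries had 148, 153 and 149 CPM with azoramide, against 94.3 and 96.5 CPM with DMSO. Control islets had 142.5, 137 and 148 CPM with azoramide, against 106.5, 110.1 and 93.6 CPM with DMSO. All 6 azoramide libraries lay above all 5 DMSO libraries. The difference on the log2 scale was 0.65 (SE 0.07, adjusted p = 2.92e-06) in labelled knockout libraries, or 1.57-fold, and 0.46 (SE 0.06, adjusted p = 2.36e-05) in control islets, or 1.38-fold. The call in control islets ended with the correction for length and GC content. Selenos lies at chr7:66079649-66089405 (plus strand) and, with 1.477 kb of exons, is the shortest member.

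The count of Selenos divided by that of Sel1l, again free of library scaling, was 0.801, 0.857 and 0.712 in labelled knockout libraries with azoramide, against 0.339 and 0.335 in those with DMSO. Control islets had 0.746, 0.766 and 0.824 with azoramide, against 0.396, 0.449 and 0.371 with DMSO. Every azoramide library was above every DMSO library. The ratio is not free of the trend with gene length given below. All genes in the length decile of Selenos had a median log2 fold change of 0.36 in both genotypes. In the decile of Sel1l that median was -0.15 in labelled knockout libraries and -0.17 in control islets. The pair was set together with its result known, so the ratio is a description.

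**Figure D2:**
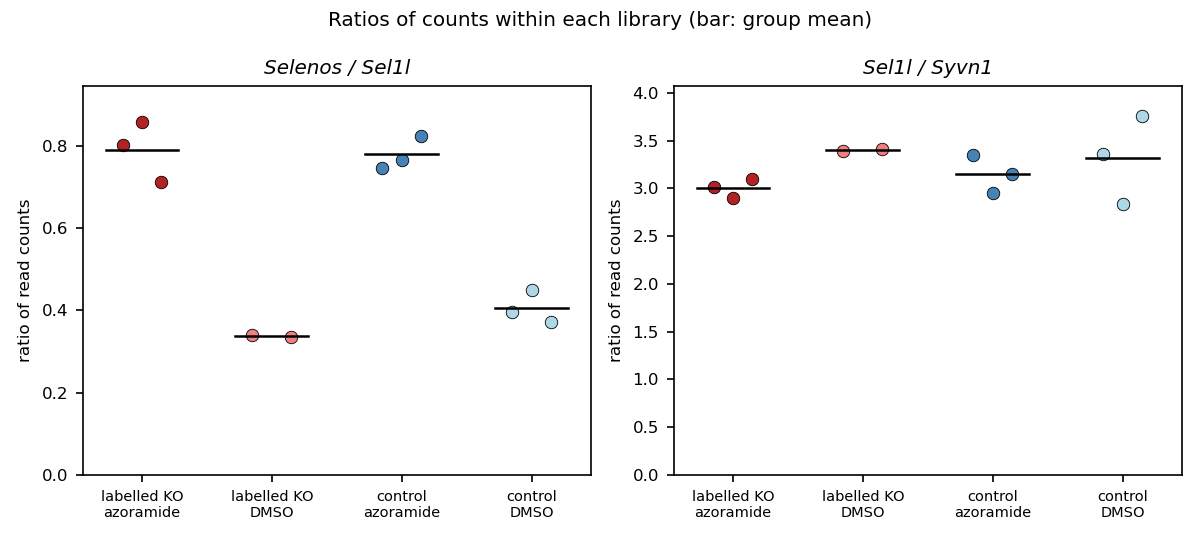
Ratio of read counts of 2 members in each library (y axis, from 0) by group, with a bar at the group mean: Selenos over Sel1l on the left, Sel1l over Syvn1 on the right. The first ratio is 0.712 to 0.857 with azoramide and 0.335 to 0.449 with DMSO, and the second overlaps between treatments in control islets. Neither ratio is corrected for gene length.

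Of the derlins, rhomboid-like membrane proteins thought to help move proteins across the ER membrane, Derl1 and Derl2 rose in labelled knockout libraries. Derl1 had 212, 210 and 218 CPM in labelled knockout libraries with azoramide, against 178 and 186 CPM with DMSO. Control islets had 217, 202 and 204 CPM with azoramide, against 182, 209 and 166 CPM with DMSO, and here the groups overlapped through control DMSO library 2. The log2 fold change was 0.23 (SE 0.08, adjusted p = 0.0315) in labelled knockout libraries, and 0.16 (SE 0.07, adjusted p = 0.0886) in control islets. The call held under 11 of 20 alternative settings and ended without any 1 of the 5 labelled knockout libraries (adjusted p = 0.0535 to 0.193).

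Derl2 had 104, 112 and 120 CPM in labelled knockout libraries with azoramide, against 90.4 and 96.5 CPM with DMSO. Control islets had 114, 107 and 103 CPM with azoramide, against 97.2, 109.5 and 95.9 CPM with DMSO, and the groups overlapped. Its log2 fold change was 0.26 (SE 0.08, adjusted p = 0.0133) in labelled knockout libraries, called under 17 of 20 alternatives but not without labelled knockout DMSO library 1 (0.21, adjusted p = 0.145), and 0.10 (SE 0.07, adjusted p = 0.267) in control islets. Of its exonic bases 231 overlap Mis12 on the opposite strand, with the same limit as for Syvn1.

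Derl3, the derlin known to be strong in secretory tissue such as exocrine pancreas, had 4.13, 3.78 and 3.70 CPM in labelled knockout libraries with azoramide, against 3.44 and 2.64 CPM with DMSO. Control islets had 3.46, 3.17 and 4.78 CPM with azoramide, against 1.95, 5.75 and 2.27 CPM with DMSO. The control DMSO library at 5.75 CPM is library 2, whose acinar markers summed to 5629 CPM, against 1443 and 998 CPM in the other control DMSO libraries. The azoramide groups did not show this pairing: labelled knockout azoramide library 2 had the highest sum of all, 6488 CPM, with Derl3 at 3.78 CPM, and library 2 of the control azoramide group had 5064 CPM with Derl3 at 3.17 CPM, the lowest of that group. Derl3 had a log2 fold change of 0.35 (SE 0.37, adjusted p = 0.494) in labelled knockout libraries and 0.19 (SE 0.33, adjusted p = 0.7005) in control islets. Without control DMSO library 2 it was 0.85 (adjusted p = 0.017) in control islets, and Derl1 was then 0.25 (adjusted p = 0.00244). Without control DMSO library 2 and the third labelled knockout library with azoramide, the values in control islets were 0.85 (adjusted p = 0.0146) for Derl3, 0.25 (adjusted p = 8.2e-04) for Derl1 and 0.17 (adjusted p = 0.0275) for Derl2. Control DMSO library 2 is the library through which the control groups of these derlins overlapped. These values therefore show how far the result depends on that library and are not further evidence of a rise. With the acinar markers as a covariate and all libraries, Derl3 was 0.04 (adjusted p = 0.937) in labelled knockout libraries and 0.08 (adjusted p = 0.839) in control islets.

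**Figure D3:**
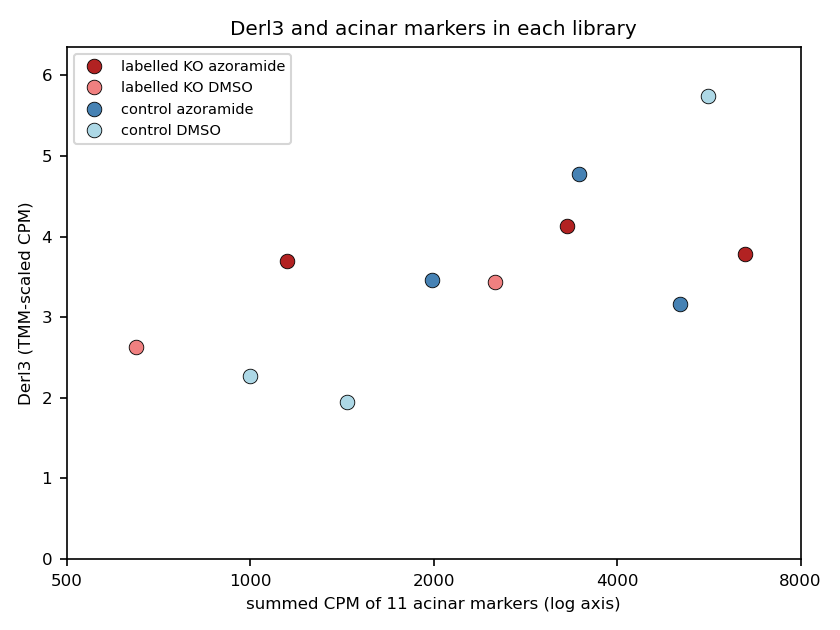
Derl3 in TMM-scaled CPM (y axis, from 0) against the summed CPM of 11 acinar marker genes (x axis, log scale), 1 point per library, coloured by group. Control DMSO library 2 has the highest Derl3 value, 5.75 CPM, and an acinar sum of 5629 CPM, while the other control DMSO libraries have 1.95 and 2.27 CPM. The library with the highest acinar sum, 6488 CPM, has Derl3 at 3.78 CPM.

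Of the members that recognise glycoproteins, Os9 rose and Edem1 fell in control islets and Edem2 did not pass. Os9, the lectin that reads trimmed mannose chains and hands substrates to Sel1l, had 262, 249 and 246 CPM in labelled knockout libraries with azoramide, against 234 and 233 CPM with DMSO. Control islets had 233, 268.5 and 259 CPM with azoramide, against 219.9, 222 and 225 CPM with DMSO. The groups did not overlap in either genotype, and the control DMSO libraries were close together. The log2 fold change was 0.11 (SE 0.07, adjusted p = 0.197) in labelled knockout libraries and 0.19 (SE 0.06, adjusted p = 0.0163) in control islets. The call in control islets held under 16 of 20 alternatives and ended with plain totals (0.02, adjusted p = 0.797). It also ended when library 2 (0.15, adjusted p = 0.0826) or 3 (0.18, adjusted p = 0.0658) of the control azoramide group was left out, and without control DMSO library 1 (0.18, adjusted p = 0.0557).

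Edem1, a mannosidase-like protein that speeds the release of misfolded glycoproteins, had 117, 121 and 110.4 CPM in labelled knockout libraries with azoramide, against 129.6 and 126 CPM with DMSO. Control islets had 109.8, 115 and 114 CPM with azoramide, against 124, 130.3 and 121 CPM with DMSO. Within each genotype the groups did not overlap. Edem1 had a log2 fold change of -0.14 (SE 0.06, adjusted p = 0.0932) in labelled knockout libraries and -0.15 (SE 0.06, adjusted p = 0.0479) in control islets, a call that held under 4 of 20 alternatives and ended without any 1 of 9 libraries (adjusted p = 0.0532 to 0.173). Edem2, which makes the first cut in the mannose chain, had 97.5 to 107.5 CPM with azoramide and 107.5 to 112 CPM with DMSO in labelled knockout libraries, and 91.9 to 106 CPM with azoramide and 94.4 to 109.8 CPM with DMSO in control islets. Its log2 fold change was -0.12 (SE 0.08, adjusted p = 0.229) in labelled knockout libraries and -0.02 (SE 0.07, adjusted p = 0.880) in control islets.

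In the plain ranges of CPM, 9 of 10 members did not overlap between azoramide and DMSO in labelled knockout libraries (5 higher, 4 lower, all but Herpud1), where 61.6% of all genes did not overlap. In control islets 5 of 10 members did not (2 higher, 3 lower), where 48.4% of all genes did not overlap. The labelled knockout comparison has only 2 DMSO libraries, so ranges separate more easily there.

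**Figure D4:**
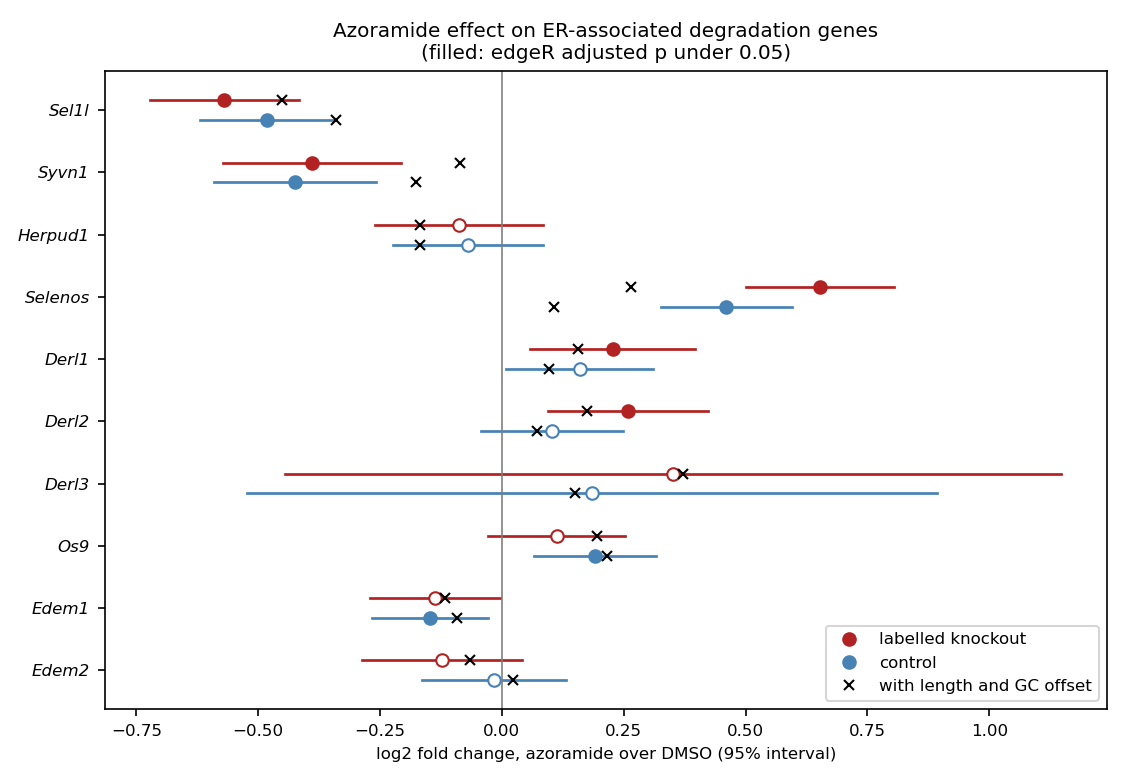
Log2 fold change of each member, azoramide over DMSO (x axis), with its 95% interval, labelled knockout above control, filled where edgeR's adjusted p was under 0.05. Crosses give the estimate corrected for length and GC content. So corrected, Sel1l is at -0.45 in labelled knockout and -0.34 in control, and Syvn1 at -0.09 and -0.18.

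The azoramide response moved with gene length over the whole table, and the members span much of that range. Across genes, which are not independent replicates, the log2 fold change had a Spearman correlation with exonic length of -0.29 in labelled knockout libraries and -0.34 in control islets. The shortest decile of genes, up to 1.586 kb, had a median of 0.36 in both genotypes, and the longest decile, from 9.734 kb, had a median of -0.16 in labelled knockout libraries and -0.22 in control islets. Selenos lies in the shortest decile, and its 0.65 in labelled knockout libraries and 0.46 in control islets stand against that median of 0.36. Sel1l lies in decile 9, with -0.57 against a median of -0.15 in labelled knockout libraries and -0.48 against -0.17 in control islets. Derl2, in the same decile, was at 0.26 in labelled knockout libraries and 0.10 in control islets. Its place there rests on counting all exons, since its longest coding transcript has 3666 bases, against 6300 in Sel1l.

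With a correction for length and GC content, a smooth offset fitted in each library, 3 of 10 members passed in labelled knockout libraries (Sel1l, Os9, Selenos), where 25.5% of all genes did, and 2 of 10 in control islets (Sel1l, Os9), where 23.9% of all genes did. The members' fewer calls thus go with fewer calls over the whole table. Sel1l was then -0.45 (adjusted p = 1.97e-04) in labelled knockout libraries and -0.34 (adjusted p = 9.12e-04) in control islets. Os9 was 0.20 (adjusted p = 0.023) in labelled knockout libraries and 0.22 (adjusted p = 0.00653) in control islets. Selenos was 0.26 (adjusted p = 0.00936) in labelled knockout libraries and 0.11 (adjusted p = 0.23) in control islets. Syvn1 was -0.09 (adjusted p = 0.49) in labelled knockout libraries and -0.18 (adjusted p = 0.105) in control islets. The longest coding transcript of Syvn1 holds 57.4% GC, against 56.6% in Os9 and 47.7% in Sel1l. Such a correction also removes any true difference that follows length or GC content, and which of these values is nearer the cells' RNA was not tested.

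**Figure D5:**
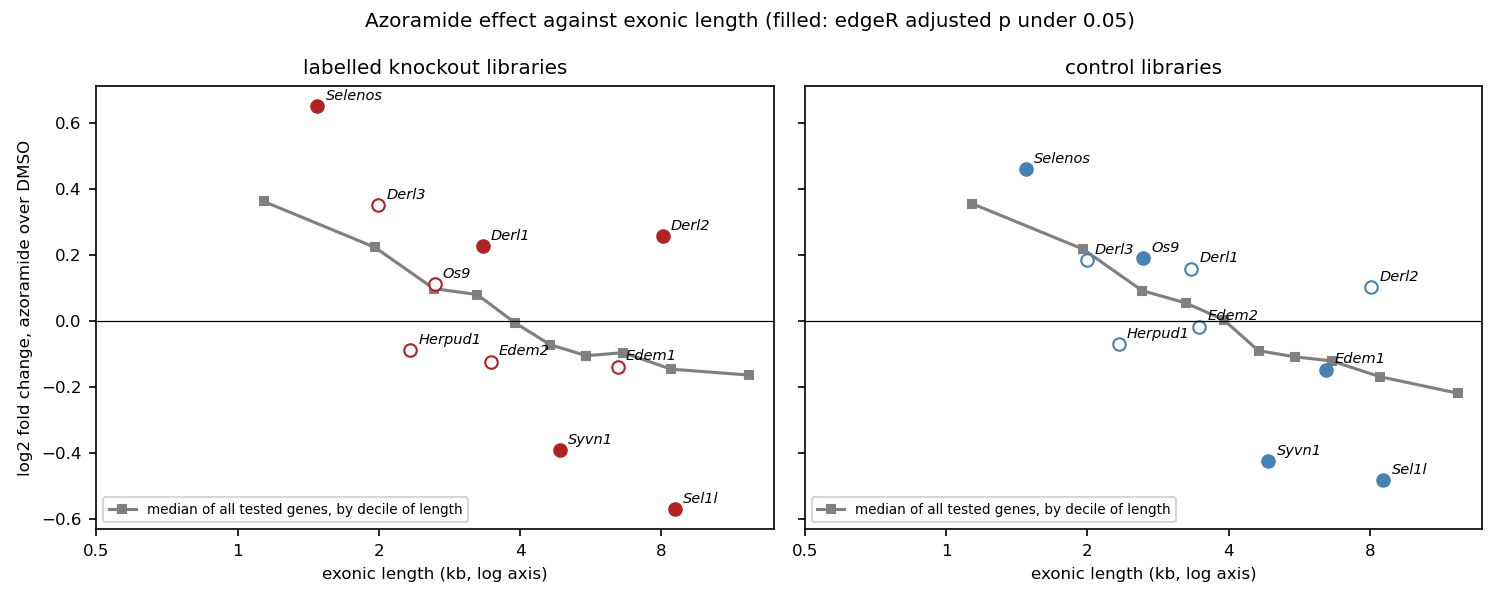
Log2 fold change, azoramide over DMSO (y axis), against exonic length (x axis, kb, log scale) for the 10 members, with labelled knockout libraries on the left and control islets on the right. Points are filled where edgeR's adjusted p was under 0.05, and the grey line joins the medians of all tested genes in deciles of length. Sel1l lies below the line and Derl2 above it at a like length of all exons, and Selenos lies above it at the short end.

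Between the genotype labels no member passed the test. With azoramide, labelled knockout against control, 0 of 10 members passed and 0% of all genes did, and 0 members had an unadjusted p under 0.05, where 5.00% of all genes did. With DMSO it was likewise 0 of 10 members and 0% of all genes, with 0 members at an unadjusted p under 0.05 against 3.52% of all genes. DESeq2 called 0 members in each, and over all genes 2 with azoramide and 3 with DMSO. Ranges did not overlap for 1 of 10 members with azoramide (Syvn1, higher in labelled knockout), against 11.1% of all genes, and for 2 of 10 with DMSO (Sel1l and Os9, higher in labelled knockout), against 19.4% of all genes. The smallest p was that of Sel1l with DMSO, at 283 ± 6.96 CPM in labelled knockout libraries (SD, n = 2) and 256 ± 12.0 CPM in controls (SD, n = 3), a log2 difference of 0.15 (95% interval -0.005 to 0.30) with an edgeR adjusted p of 0.9992. Leaving out Derl3, the 95% intervals of the members' log2 differences in both comparisons ran from -0.27 at the lowest (Derl2 with DMSO) to 0.30 at the highest (Sel1l with DMSO).

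The azoramide effect itself was compared between the labels by the interaction term, the effect in labelled knockout libraries minus that in control islets. It passed for 0 of 10 members and for 0% of all genes, and 0 members had an unadjusted p under 0.05, where 3.73% of all genes did. DESeq2 called 0 members and 0 of all genes. Selenos came closest, at 0.19 (SE 0.10, unadjusted p = 0.0598, adjusted p = 0.9987). So the calls of Derl1 and Derl2 in labelled knockout libraries and of Os9 and Edem1 in control islets do not show an effect particular to either label: the interaction was 0.07 (95% interval -0.16 to 0.29) for Derl1, 0.16 (-0.06 to 0.38) for Derl2, -0.08 (-0.27 to 0.11) for Os9 and 0.01 (-0.17 to 0.19) for Edem1.

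The other genes of the pathway were described from a list of 59, all of which were tested. With azoramide 17 rose, 15 fell and 27 did not pass in labelled knockout libraries, and 18 rose, 12 fell and 29 did not pass in control islets. Over all genes tested 20.0% rose and 19.8% fell in labelled knockout libraries, and 19.3% rose and 19.8% fell in control islets. The median log2 fold change was 0.03 in labelled knockout libraries and 0.08 in control islets. Scaled by plain library totals, 8 rose and 22 fell in labelled knockout libraries and 7 rose and 25 fell in control islets. Over all 15093 genes so scaled, 1866 rose and 4542 fell in labelled knockout libraries and 1628 rose and 4943 fell in control islets. The balance of directions thus follows the scaling. Between the genotype labels 0 of the 59 passed edgeR's test, with 4 at an unadjusted p under 0.05 with azoramide and 2 with DMSO, and in the interaction 0 passed, with 2 at an unadjusted p under 0.05. DESeq2 called 0 of them in each.

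The rises with the smallest p in both genotypes were those of Selenok, Ngly1 and H13. Selenok, a second selenoprotein of the ER membrane that binds the derlins, was 0.84 (edgeR adjusted p = 9.22e-06) in labelled knockout libraries, at 191, 203 and 166 CPM with azoramide against 108 and 100.3 CPM with DMSO. In control islets it was 0.71 (edgeR adjusted p = 1.31e-05), at 191, 173 and 191 CPM with azoramide against 119, 123 and 98.0 CPM with DMSO. Corrected for length and GC content, Selenok was 0.46 in labelled knockout libraries and 0.36 in control islets. Ngly1, the cytosolic enzyme that strips sugar chains from extracted proteins, was 0.54 in labelled knockout libraries and 0.56 in control islets. H13, the signal peptide peptidase that cuts membrane proteins for degradation, was 0.58 in labelled knockout libraries and 0.57 in control islets, and 0.97 and 0.91 with that correction. Dnajc10, an ER reductase that opens disulphides, was next in labelled knockout libraries at 0.36, and also passed in control islets at 0.24. Ube2k, a ubiquitin-conjugating enzyme, was next in control islets at 0.29, and also passed in labelled knockout libraries at 0.27.

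Among the falls with the smallest p, Ubqln2, a shuttle to the proteasome, was -0.59 in labelled knockout libraries and -0.38 in control islets. Usp19, a membrane deubiquitinase, was -0.47 in labelled knockout libraries and -0.39 in control islets. Bag6, a chaperone for extracted proteins, was -0.46 in labelled knockout libraries and -0.44 in control islets. Ube4b, which extends ubiquitin chains, was -0.45 in labelled knockout libraries, and also passed in control islets at -0.355. March6, an ER ubiquitin ligase apart from Syvn1, was -0.42 in control islets and -0.41 in labelled knockout libraries. Selenok, Ngly1, H13, March6 and Ubqln2 passed in both genotypes under all 20 alternatives. Usp19 and Bag6 lost their calls with the correction for length and GC content, at -0.08 and -0.01 in labelled knockout libraries and -0.05 and -0.04 in control islets. With it Ube4b also lost its call in control islets (-0.15, edgeR adjusted p = 0.0741). So did Ube2k in labelled knockout libraries (0.12, edgeR adjusted p = 0.156). That correction left 16 of the 59 called in labelled knockout libraries, where it left 25.5% of all genes called, and 23 in control islets, where it left 23.9%.

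Of the regulators known to act on these genes, Xbp1 was 0.24 (edgeR adjusted p = 0.0129) in labelled knockout libraries and 0.08 (edgeR adjusted p = 0.345) in control islets. Atf4 was 0.44 (edgeR adjusted p = 0.0136) in labelled knockout libraries and 0.31 (edgeR adjusted p = 0.0422) in control islets, with calls that held under 16 and 6 of 20 alternatives. Atf6 was -0.10 (edgeR adjusted p = 0.401) in labelled knockout libraries and -0.20 (edgeR adjusted p = 0.0476) in control islets, called under 7 of 20. These are RNA levels, and Xbp1 counts do not separate its spliced form, through which the unfolded protein response acts.

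The genes whose log2 CPM over the 11 libraries followed that of Sel1l most closely were Kdm6b (Pearson r = 0.993), Grk3 (0.989) and Cbl (0.988), among 9601 genes with a mean log2 CPM of at least 3. Of these, 389 had an r above 0.95. Closest to Syvn1 were Fzd6 (0.989), Sf1 (0.984) and Hmgxb3 (0.983), with 39 genes above 0.95. Herpud1 had no gene above 0.95, and its nearest were Etv5 (0.900), Mib2 (0.892) and Poldip2 (0.891). These values describe libraries that share a treatment and a scaling, and they say nothing of function.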

How the data were processed

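RNA-seq of mouse islets gave 11 libraries, grouped by their titles. The values deposited by the authors are read counts, not normalized, for 32285 genes in a single table, which hold only whole numbers. Per the submitters' processing notes, STAR 2.7.2a, DESeq2 and the build mm10 were used, with no roles given; how reads were counted, with which annotation and on which strand, is not given in the sources used here.

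From the counts, edgeR 4.0.16 in R 4.3.3 (quasi-likelihood test, robust, TMM scaling, filter on low counts by group, 15093 genes kept) was run as 1 fit of 4 groups, with Benjamini-Hochberg adjustment over all genes tested and a threshold of 0.05; the scripts were tested on simulated data. Totals ran from 16832800 to 19501813 counts, so counting error was small for all members but Derl3. Intervals are 95%, and p-values measure the spread between these pools of mice; the labels name no batch. Lengths, GC content and coordinates came from GENCODE M21 (GRCm38), which holds 32235 of the table's gene identifiers, and promoters from RefSeq. Alternatives were DESeq2 1.42.0 and its size factors, plain totals, no filter, only the groups compared, a replicate block, a smooth offset to correct for length and GC content (mgcv 1.9.3), acinar markers as a covariate, and leaving out libraries. All 10 members were named whatever their result; of the other pathway genes, up to 4 per direction with the smallest p in each azoramide comparison; and the 3 nearest genes by r for Sel1l, Syvn1 and Herpud1, leaving out clone and accession names. The members and lists were chosen with earlier results of these data known.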

Additional observations from a re-analysis of the deposited data

How the results depend on the processing

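With azoramide, 5 members passed in labelled knockout libraries and 5 in control islets. With the correction for length and GC content it was 3 and 2 (25.5% and 23.9% of all genes). Leaving out 1 library at a time gave 3 to 6 in control islets, where 32.1% to 40.6% of all genes passed. Leaving out either labelled knockout DMSO library leaves 1 in that group, so counts and p-values of those fits are not given here. Without labelled knockout DMSO library 1, Derl1 was 0.20 and Derl2 0.21 in labelled knockout libraries. Of the 59 other pathway genes, 32 passed in labelled knockout libraries, 16 with that correction and 21 to 32 leaving out 1 library, the 21 without DMSO library 1. In control islets 30 passed, where 39.0% of all genes did. Under the 20 alternatives 23 to 34 passed there, where 23.9% to 43.5% of all genes did. With DMSO library 2 of the controls and azoramide library 3 of the labelled knockout both left out, 5 members passed in labelled knockout libraries, where 46.3% of all genes did, and 7 in control islets, where 43.1% did. Counts between the genotype labels were 0 under all 20 alternatives, and in the interaction under all 19. Sel1l was called under all 20 in both genotypes. Among member values in the azoramide comparisons, 11 of 400 took another sign, none of them called in either fit. Plain library totals moved the median of all genes to -0.16 and -0.19 in labelled knockout libraries and control islets.

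The replicate numbers are shared between groups, and the labels do not say whether same-numbered libraries came from the same pool. The correlation of same-numbered libraries' deviations from their group means ran from -0.14 to 0.16. Groups this small cannot show whether the libraries pair, and the main test treats them as unpaired. With the number as a replicate block, 4 members passed in labelled knockout libraries, where 40.8% of all genes did. In control islets 4 members passed with that block, where 39.8% of all genes did. Derl1 was then 0.21 (edgeR adjusted p = 0.0619) in labelled knockout libraries, and Edem1 was -0.15 (edgeR adjusted p = 0.0503) in control islets.

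Pools, not mice, are the samples, 2 in 1 group, and Derl3 is limited by its 35 to 116 reads.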
